A study of Mus musculus with 2 samples.

Results

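Macrophage scavenger receptors and the mannose receptor were examined as 10 genes chosen by symbol, Mrc1, Stab1, Msr1, Marco, Cd36, Scarb1, Scarb2, Olr1, Scarf1 and Cd163, all of which were found among the 17270 genes measured. The tested cells were Ninj1-/- macrophages and they were set against Ninj1+/+ macrophages. Ninj1 codes for ninjurin 1, which sits in the plasma membrane and is known to rupture it in dying cells. For both genotypes, bone marrow of 6-week-old mice was differentiated in M-CSF for 7 days and then activated with 500 ng/ml lipopolysaccharide plus 20 ng/ml interferon-gamma, so all columns carry the classical activating stimulus and no unstimulated cells were compared. Each genotype was registered as 1 sample and measured as 2 columns of poly-A RNA sequencing, and the labels leave unsaid whether a genotype's columns stem from different animals, dishes or preparations. All p-values therefore measure the spread between these columns only, which may be technical.

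Scavenger receptors are a functional group, not a single protein family. They bind polyanionic or lipid ligands such as modified lipoproteins, bacterial surfaces and dying cells, and most deliver them to endosomes and lysosomes. The mannose receptor does the same for glycoproteins that end in mannose, fucose or N-acetylglucosamine, and its transcript is a common marker of alternatively activated macrophages, as opposed to the classical state studied here. By class, Msr1 and Marco are the collagen-containing class A receptors, Cd36, Scarb1 and Scarb2 are the class B receptors, Olr1 and Mrc1 carry C-type lectin domains, Scarf1 carries EGF-like repeats, Stab1 is the fasciclin-domain receptor stabilin-1 and Cd163 is built of scavenger receptor cysteine-rich domains.

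The columns held 51859103 to 62684262 reads in genes in Ninj1-/- cells and 46798381 to 53928636 in Ninj1+/+ cells. Ninj1 itself stood at 3519 and 4086 normalized counts in Ninj1-/- columns, against 28850 and 31158 in Ninj1+/+ columns, in the direction of the labels. That is 12.7% of wild type, and where in the gene the remaining reads lie was not analysed here. Macrophage markers were abundant in every column: the 8 listed markers summed to 1046067 and 1063995 normalized counts in Ninj1-/- cells and 974636 and 1056163 in Ninj1+/+ cells. Of 6 listed markers of T and NK cells, 3 were among the genes measured, and Cd3e, Cd3g and Nkg7 were not. The measured ones summed to 0 to 1.51 normalized counts per column, with Cd3d and Cd8a at 0 throughout. Markers of B cells summed to between 16.4 and 30.2. Of the neutrophil markers in the table, S100a8 alone was abundant enough to be tested, at 58.0 and 63.5 normalized counts in Ninj1-/- columns and 53.5 and 101.8 in Ninj1+/+ columns. As bulk RNA was measured, fewer cells of a type and less RNA per cell cannot be told apart in any value below.

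Of the 10 genes, 9 had at least 20 reads in a column and were tested. By limma with Benjamini-Hochberg adjustment over all 12872 tested genes, Mrc1 and Stab1 fell, Cd36 rose and 6 did not pass at adjusted p below 0.05. Among all tested genes 1.24% were called lower and 1.67% higher. In 5 of the 9 genes the columns of the genotypes did not overlap, a share of 55.6%, which lies close to the 51.1% of all tested genes with that property. The median log2 ratio, knockout minus wild type, was -0.068 over the 9 genes and -0.0034 over all tested genes. Mrc1 was lowest at a ratio of -0.79 and Cd36 highest at 0.44.

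**Figure D1:**
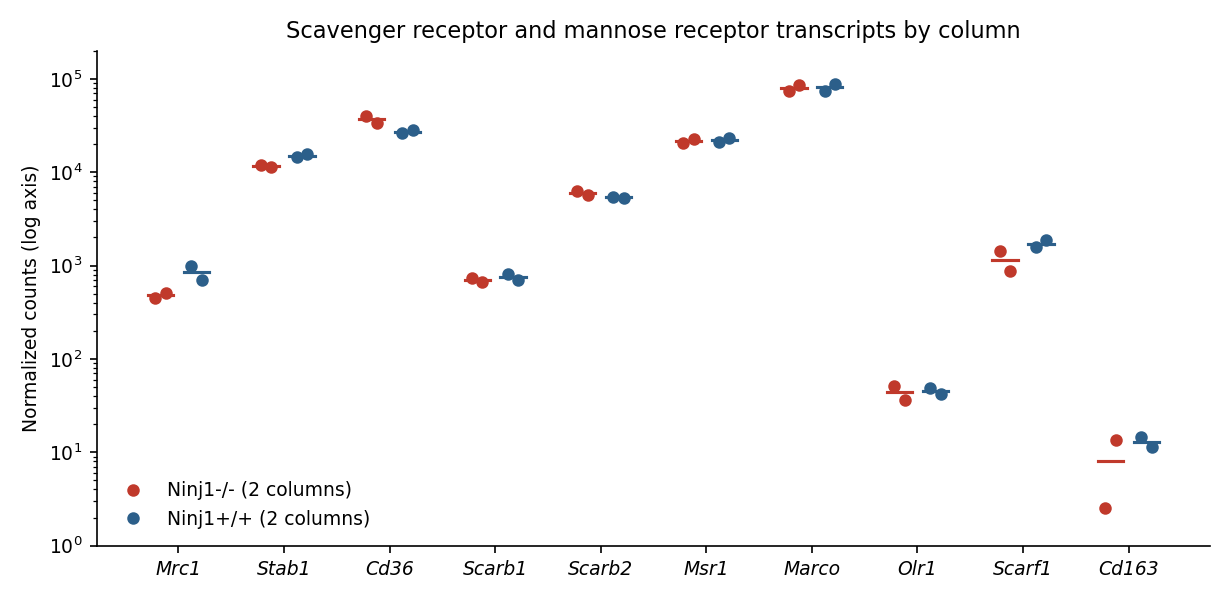
Normalized counts of the 10 receptor genes (log axis) in the 2 Ninj1-/- columns (red, left of each pair) and the 2 Ninj1+/+ columns (blue, right); points are columns and bars are means of 2. Mrc1 and Stab1 sit lower and Cd36 higher in Ninj1-/- columns, and Marco and Msr1 overlap.

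**Figure D2:**
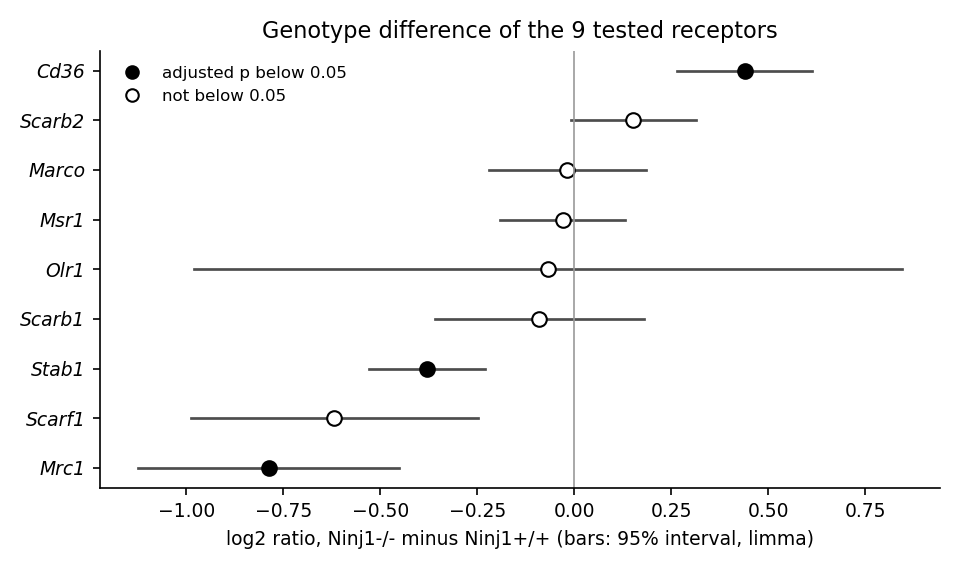
Log2 ratio (Ninj1-/- minus Ninj1+/+) of the 9 tested receptors with its 95% interval from limma; filled points have an adjusted p below 0.05. Mrc1 at -0.79 and Stab1 at -0.38 lie below 0 and Cd36 at 0.44 above it, and the interval of Olr1 runs from -0.98 to 0.84.

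Mrc1 (Entrez 17533), the mannose receptor CD206, spans chromosome 2 from 14229392 to 14332057 on the plus strand of mm10, with 30 exons in a transcript of 5374 bases. It was read at 454 and 514 normalized counts in Ninj1-/- columns, against 988 and 704 in Ninj1+/+ columns, that is, 360 and 340 reads against 609 and 498. Both Ninj1-/- values lay under both Ninj1+/+ values, and the 2 Ninj1+/+ columns differed from each other by 1.40-fold, more than the 1.13-fold between the Ninj1-/- columns. Mrc1 averaged 484 ± 42.4 in Ninj1-/- and 846 ± 201 in Ninj1+/+ cells (SD, n = 2 columns each), a level of 57.9% of wild type on the log2(normalized count + 1) scale. The log2 ratio was -0.79 (SE 0.16, 95% interval -1.12 to -0.45, limma adjusted p = 0.0203). The 4 possible pairings of a knockout with a wild-type column gave ratios of 0.459 to 0.729. The call was lost without Ninj1-/- column 1 (log2 ratio -0.70, limma adjusted p = 0.161) and without Ninj1+/+ column 1 (-0.54, adjusted p = 0.222), within a range of adjusted p over all alternatives of 5.07e-06 to 0.222. The lowest value came from the fit with the column number as a block and the GC and length trend removed, and DESeq2 gave 0.00182. The gene holds the microRNA gene Mir511 on the same strand, which was not analysed here.

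Stab1 (Entrez 192187) encodes stabilin-1, an endocytic receptor of macrophages and sinusoidal endothelium that takes up acetylated low-density lipoprotein and the matrix protein SPARC. It spans chromosome 14 from 31139013 to 31168641 on the minus strand, with 69 exons in a transcript of 7999 bases, the longest of the 10. It stood at 11832 and 11255 normalized counts in Ninj1-/- columns, against 14465 and 15580 in Ninj1+/+ columns. The genotypes did not overlap, and the columns of a genotype lay within 1.08-fold of each other, close together beside the genotype difference. It averaged 11543 ± 409 in Ninj1-/- and 15022 ± 789 in Ninj1+/+ cells (SD, n = 2 columns each), and the log2 ratio was -0.38 (SE 0.07, 95% interval -0.53 to -0.23, limma adjusted p = 0.0136), or 76.9% of wild type. With each column's trend with GC content and length removed its ratio was -0.16 (limma adjusted p = 0.282), with the GC trend alone removed -0.29 (0.0556) and with the length trend alone removed -0.30 (0.0413). It was also uncalled without Ninj1-/- column 1 (adjusted p = 0.110), without Ninj1-/- column 2 (0.116) and without Ninj1+/+ column 1 (0.0501), in a range over alternatives of 0.000151 to 0.282. Its end overlaps 112 bases of Nt5dc2 on the opposite strand. Nt5dc2 was read at 647 and 716 normalized counts in Ninj1-/- columns and 716 and 1065 in Ninj1+/+ columns, far below Stab1, and since the sources used here do not say whether strand was used in counting, reads in that stretch cannot be assigned.

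Cd36 (Entrez 12491) encodes the class B receptor that takes up long-chain fatty acids and oxidized low-density lipoprotein and is a known target of PPAR-gamma. It spans chromosome 5 from 17781690 to 17888801 on the minus strand, with 15 exons in a transcript of 3399 bases. It stood at 39899 and 34036 normalized counts in Ninj1-/- columns, against 26263 and 28113 in Ninj1+/+ columns. Both Ninj1-/- values exceeded both Ninj1+/+ values, with the first Ninj1-/- column the highest of all. It averaged 36967 ± 4146 in Ninj1-/- and 27188 ± 1308 in Ninj1+/+ cells (SD, n = 2 columns each), and the rise was 1.36-fold with a log2 ratio of 0.44 (SE 0.08, 95% interval 0.27 to 0.61, limma adjusted p = 0.0140). The call was lost without Ninj1-/- column 1 (log2 ratio 0.32, adjusted p = 0.268), without Ninj1+/+ column 1 (0.39, adjusted p = 0.128) and after removing the trend with GC content and length (0.30, adjusted p = 0.0824), in a range of adjusted p over all alternatives by limma, edgeR and DESeq2 of 7.15e-05 to 0.268.

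The windows before the annotated starts of these 3 genes are shown because these are the members whose transcripts were called. RefSeq's table for GRCm38.p6, which is the build of mm10, gave a window for 7 of the 10 genes. Each line is the 250 bases before the start, written 5′ to 3′ on the gene's strand, and capitals mark every match to a searched motif on either strand. The RefSeq start of Cd36 lies inside the longer span given above, which includes starts farther upstream.
Mrc1, chr2:14229164-14229413, plus strand: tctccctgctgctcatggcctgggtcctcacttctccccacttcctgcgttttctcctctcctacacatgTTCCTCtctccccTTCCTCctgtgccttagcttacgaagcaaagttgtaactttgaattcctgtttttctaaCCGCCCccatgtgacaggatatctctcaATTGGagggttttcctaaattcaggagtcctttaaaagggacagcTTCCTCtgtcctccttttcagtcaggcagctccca
Stab1, chr14:31168642-31168891, minus strand: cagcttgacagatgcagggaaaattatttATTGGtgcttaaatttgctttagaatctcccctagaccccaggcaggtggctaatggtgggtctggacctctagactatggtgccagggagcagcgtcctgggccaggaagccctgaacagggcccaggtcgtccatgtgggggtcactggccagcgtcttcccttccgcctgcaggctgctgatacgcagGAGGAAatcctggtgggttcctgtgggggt
Cd36, chr5:17835897-17836146, minus strand: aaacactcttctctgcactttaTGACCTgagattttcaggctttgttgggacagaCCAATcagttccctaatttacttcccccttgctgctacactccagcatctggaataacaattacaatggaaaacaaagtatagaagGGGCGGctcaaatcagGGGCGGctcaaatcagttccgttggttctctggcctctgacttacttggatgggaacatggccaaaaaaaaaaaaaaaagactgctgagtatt
The motifs searched, on both strands, were the ETS core GAGGAA bound by PU.1 and its relatives, and the CCAAT box. The GC box was searched as GGGCGG, a site of SP1-type factors. The nuclear receptor monomer site was searched as AGGTCA, alone and as its spaced direct repeat. The AP-1 element was searched as TGANTCA. The E-box was searched as CACGTG and the TATA box as TATAAA. The STAT element was searched as TTCNNNGAA and with 1 more base between its arms, beside the NF-kB and interferon response elements. The monomer site is contained in the repeat, and other forms can overlap. The Mrc1 window held 3 ETS cores, starting 180, 167 and 35 bases before the start, with 1 CCAAT and 1 GC box. The Stab1 window held 1 ETS core, 30 bases before the start, and 1 CCAAT. The Cd36 window held no ETS core but 2 GC boxes, 1 CCAAT and 1 monomer site at 228 bases. Among all 27025 promoters in the table, cut to the same length, the ETS core occurred in 23.1%, CCAAT in 34.5%, the GC box in 32.9% and the monomer site in 13.8%. The other forms did not occur in these 3 windows. The windows of Mrc1, Stab1 and Cd36 had a GC content of 49.6%, 57.2% and 43.2%, beside a median of 52% over all promoters. The matches describe these letters only, and binding was not measured.

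The other class B receptors did not pass the test. Scarb2 (Entrez 12492; chromosome 5, 92441314 to 92506833) encodes LIMP-2, a lysosomal membrane protein that carries beta-glucocerebrosidase to lysosomes. It stood at 6306 and 5719 normalized counts in Ninj1-/- columns, against 5480 and 5328 in Ninj1+/+ columns. Both Ninj1-/- values lay above both Ninj1+/+ values, by little, with a log2 ratio of 0.15 (95% interval -0.0075 to 0.31, limma adjusted p = 0.275). Scarb1 (Entrez 20778; chromosome 5, 125277087 to 125341094) encodes SR-BI, which takes cholesteryl esters from high-density lipoprotein. It stood at 738 and 674 normalized counts in Ninj1-/- columns, against 806 and 699 in Ninj1+/+ columns, which overlap (log2 ratio -0.090, 95% interval -0.36 to 0.18, adjusted p = 0.736).

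The class A receptors, both abundant, showed no difference larger than their spread. Marco (Entrez 17167; chromosome 1, 120474538 to 120505024) binds bacteria and inhaled particles. It stood at 73932 and 86571 normalized counts in Ninj1-/- columns, against 74953 and 87570 in Ninj1+/+ columns. The 2 columns of each genotype were farther apart than the genotypes, and the log2 ratio was -0.018 (95% interval -0.22 to 0.18, limma adjusted p = 0.939). Msr1 (Entrez 20288; chromosome 8, 39581685 to 39642673), the first described macrophage receptor for acetylated lipoprotein, stood at 20561 and 22793 normalized counts in Ninj1-/- columns, against 21132 and 23106 in Ninj1+/+ columns. Its log2 ratio was -0.030, with an interval of -0.19 to 0.13 (adjusted p = 0.869), that is, a ratio of knockout to wild type between 0.876 and 1.10. The sign of both ratios turned in some alternatives, between -0.16 and 0.10 throughout.

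Scarf1 (Entrez 380713; chromosome 11, 75513540 to 75526582), a receptor for apoptotic cells and modified lipoprotein, had the second lowest ratio but the widest spread among the well-read genes. It stood at 1442 and 864 normalized counts in Ninj1-/- columns, against 1582 and 1858 in Ninj1+/+ columns. The Ninj1-/- columns differed from each other by 1.67-fold, and the higher one lay only a little under the lower wild-type column. The log2 ratio was -0.62 (SE 0.17, 95% interval -0.99 to -0.25, limma adjusted p = 0.0705). Without Ninj1-/- column 1 it was -0.99 and called (adjusted p = 0.00328), and without Ninj1-/- column 2 it was -0.25 and not called (adjusted p = 0.423), within a range over alternatives of 0.000415 to 0.423. The lowest value came from the fit with the column number as a block and the GC and length trend removed.

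Olr1 and Cd163 were near the limit of detection. Olr1 (Entrez 108078; chromosome 6, 129485244 to 129507165) encodes LOX-1, a lectin-like receptor for oxidized lipoprotein. It was read 41 and 24 times in Ninj1-/- columns, against 30 and 30 times in Ninj1+/+ columns, and its log2 ratio of -0.068 has a 95% interval of -0.98 to 0.84 (limma adjusted p = 0.949). Cd163 (Entrez 93671; chromosome 6, 124304656 to 124330527), the receptor for haemoglobin bound to haptoglobin, was read 2 and 9 times in Ninj1-/- columns and 9 and 8 times in Ninj1+/+ columns, below the filter. The exact 95% Poisson interval runs from 0.242 to 7.22 reads for the lowest of these counts and from 4.12 to 17.1 for a count of 9. Fitted without the filter, its log2 ratio was -0.95 with a 95% interval of -2.74 to 0.84 (limma adjusted p = 0.627). Intervals of this kind cover counting error only, and they are too narrow where both mates of a read pair were counted, as the 71.9% to 74.6% of even numbers among low counts would give.

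Levels differed far more between receptors than between genotypes. Per kilobase of transcript, Marco was highest at 38406 and 44972 normalized counts per kb in Ninj1-/- columns, against 38937 and 45491 in Ninj1+/+ columns, and its mean ranked 96 among 16940 genes with a known length. Cd36 followed at 11739 and 10013 in Ninj1-/- columns, against 7727 and 8271 in Ninj1+/+ columns. Msr1 came next at 5655 and 6269 in Ninj1-/- columns, against 5812 and 6355 in Ninj1+/+ columns. Stab1, Scarb2, Scarf1 and Scarb1 followed in that order in both genotypes. Mrc1 lay below them at 84.5 and 95.6 normalized counts per kb in Ninj1-/- columns, against 184 and 131 in Ninj1+/+ columns, and Olr1 and Cd163 were lowest. No neighbours in this order overlapped within a genotype, though in Ninj1-/- cells Scarf1, at 499.6 and 299.4 per kb, came close to Scarb1, at 292.6 and 267.3.

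Summed per kb, the 10 receptors came to 59513 and 64554 normalized counts in Ninj1-/- columns and to 56519 and 64265 in Ninj1+/+ columns, which overlap. Cd36 made up 19.7% and 15.5% of that sum in Ninj1-/- cells, against 13.7% and 12.9% in Ninj1+/+ cells. Marco made up 64.5% and 69.7% in Ninj1-/- cells, against 68.9% and 70.8% in Ninj1+/+ cells, which overlap. The ratio of Cd36 to Msr1 per kb was 2.076 and 1.597 in Ninj1-/- columns, against 1.329 and 1.302 in Ninj1+/+ columns. Shares of a sum are not independent, so these values restate the rise of Cd36 on another scale. Together the 10 genes took 0.196% and 0.207% of all reads in Ninj1-/- columns and 0.192% and 0.214% in Ninj1+/+ columns.

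The genotype ratio moved with transcript composition over the tested genes, and the members lie at different points of that trend. With the 12726 tested genes of known GC content and length split into 8 equal groups by GC content, the median log2 ratio was 0.12 in the lowest group and -0.11 in the highest. Split by transcript length, it was 0.080 in the shortest and -0.069 in the longest group. Cd36, at 38.4% GC, lay in the lowest GC group with Msr1 and Olr1, and only Cd36 of these had a ratio above 0. Stab1 lay in the second highest GC group, at 57.3%, and in the longest group, and Scarf1 in the highest GC group, at 58.7%. Mrc1, at 43.4% GC, lay in the second lowest group, where the median was 0.064, opposite in sign to its own ratio. By length Mrc1 lay in the second longest group, where the median was -0.040, of the same sign as its ratio. With the length trend alone removed its ratio was -0.73 (limma adjusted p = 0.0265). With both trends removed Mrc1 remained called at -0.81 (limma adjusted p = 0.0239), while Stab1 and Cd36 were no longer called, as given above. With the GC trend alone removed Cd36 was also uncalled (0.32, adjusted p = 0.0806). With both trends removed and the column number as a block, Cd36 was called (adjusted p = 0.00313) and Stab1 was not (0.229). The origin of the composition trend was not tested.

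**Figure D3:**
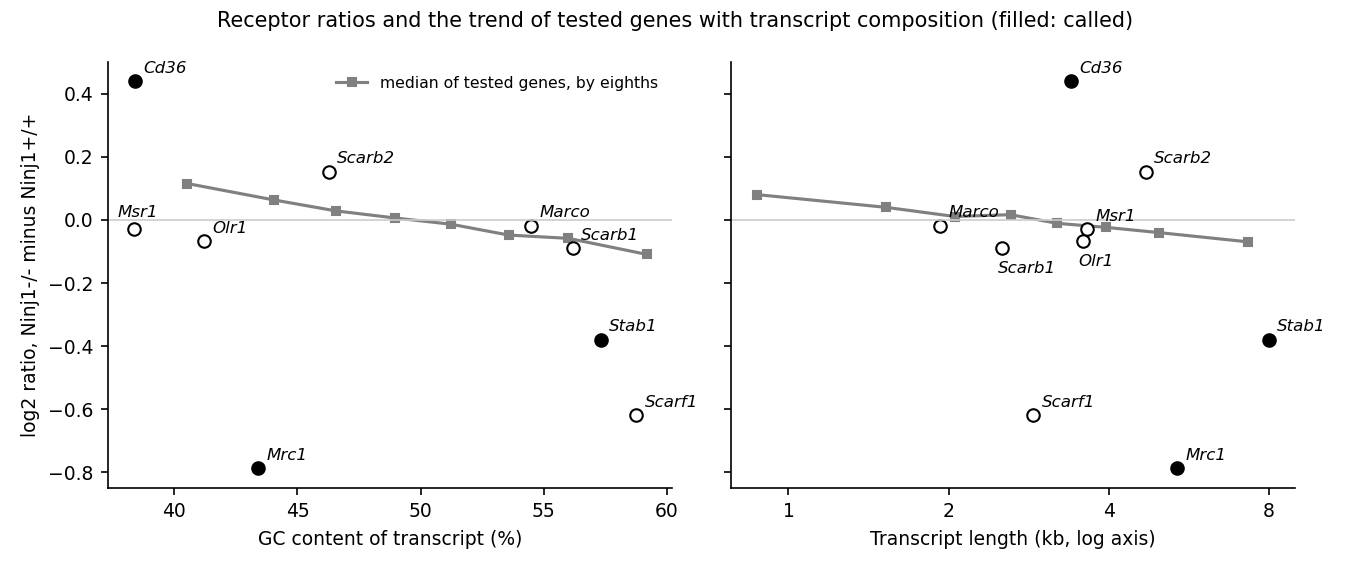
Log2 ratio (Ninj1-/- minus Ninj1+/+) of the 9 tested receptors against GC content (left, percent) and transcript length (right, kb on a log axis); filled points were called, and grey squares are medians of the 12726 tested genes of known composition in 8 equal groups. Cd36 and Stab1 deviate from 0 in the direction of the GC trend, and Mrc1 at -0.79 deviates against it.

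**Figure D4:**
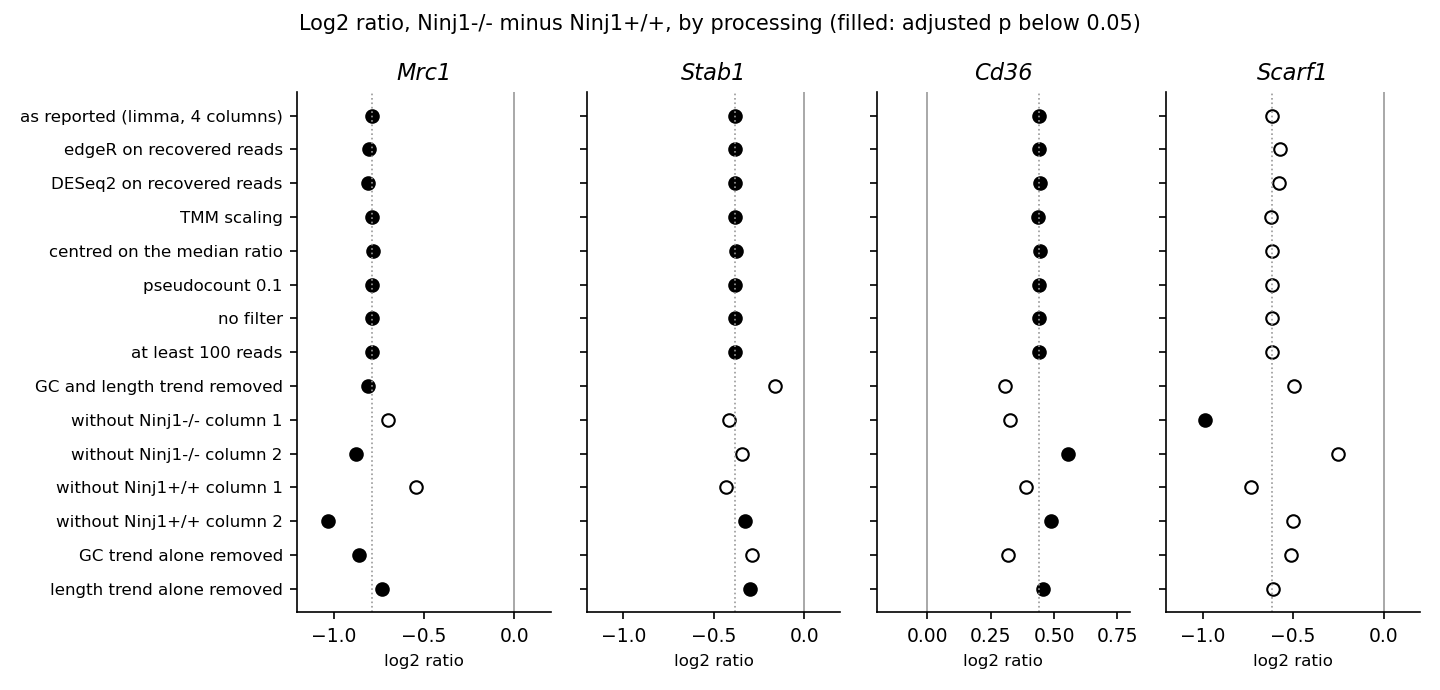
Log2 ratio of Mrc1, Stab1, Cd36 and Scarf1 under each way of processing the table, except those with the column number as a block, which are not drawn. Filled points have an adjusted p below 0.05, the solid line is 0 and the dotted line the reported ratio. Each ratio keeps its sign in every setting drawn, and calls are lost mainly when a column is left out or the composition trend is removed.

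The genes next to the called receptors were compared to see whether whole stretches moved. The nearest tested neighbours of Mrc1, Tmem236 and Cacnb2, were read 15 to 48 times per column and did not pass (limma adjusted p = 0.318 and 0.973). Tmem236, 7.40 kb away, stood at 44.1 and 45.3 normalized counts in Ninj1-/- columns, against 77.9 and 67.9 in Ninj1+/+ columns, which do not overlap. On the far side of Stab1, 2.29 kb away, Nisch stood at 12077 and 12744 normalized counts in Ninj1-/- columns, against 15842 and 15002 in Ninj1+/+ columns, and fell with a log2 ratio of -0.31 (adjusted p = 0.0293). Nisch has a GC content of 57.5%, like Stab1, and with the composition trend removed its ratio was -0.13 (adjusted p = 0.291). It was also uncalled without Ninj1-/- column 1 (adjusted p = 0.353), without Ninj1-/- column 2 (0.106) and without Ninj1+/+ column 1 (0.157). Smim4, on the other side of Stab1, and Sema3c and Gnat3, on the sides of Cd36, did not pass (adjusted p = 0.955, 0.602 and 0.837).

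Other scavenger receptors and related lectins mostly did not pass. In a list of 17 further scavenger receptors, 12 were tested, 1 rose and 1 fell, against 2.91% of all genes called in either direction. A raw p below 0.05 was found for 6 of the 12, beside 19.8% of all tested genes. Lrp1, a large receptor for apolipoprotein E and protease complexes, stood at 35284 and 34173 normalized counts in Ninj1-/- columns, against 44325 and 43679 in Ninj1+/+ columns (log2 ratio -0.34, limma adjusted p = 0.0203). Cd44, the hyaluronan receptor, stood at 25277 and 21918 in Ninj1-/- columns, against 17968 and 18533 in Ninj1+/+ columns (0.37, adjusted p = 0.0246). The median log2 ratio of the list was 0.078. None of 8 tested genes of the mannose receptor family and endocytic lectins was called by limma, and 4 had a raw p below 0.05, a share to be read beside the 19.8% of all tested genes with such a p. edgeR called none and DESeq2 called 1, Clec4d, which was named after its values were seen. The largest ratio among them was that of Mrc2, the paralogue of Mrc1 found on fibroblasts, at 32.8 and 27.2 normalized counts in Ninj1-/- columns, against 64.9 and 66.5 in Ninj1+/+ columns (-1.11, adjusted p = 0.158).

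Of 20 tested transcription factors known to act on scavenger receptor genes and reported here, none was called by limma, edgeR or DESeq2, 2 had a raw p below 0.05 (19.8% of all tested genes did), and the median was -0.0084. The factor with the largest ratio among them was Klf2, at 258 and 387 normalized counts in Ninj1-/- columns, against 445 and 361 in Ninj1+/+ columns, which overlap (log2 ratio -0.34, limma adjusted p = 0.364). Of 15 tested partners in lipid uptake, storage and efflux reported here, Lpl rose, Abca1 and Pltp fell and 12 did not pass, with a median of -0.041. Among all tested genes 2.91% were called in either direction. A raw p below 0.05 was found for 6 of the 15, beside 19.8% of all tested genes. Abca1, the cholesterol exporter, stood at 2021 and 2242 normalized counts in Ninj1-/- columns, against 3455 and 2881 in Ninj1+/+ columns (-0.57, adjusted p = 0.0104). Pltp, which transfers phospholipid between lipoproteins, stood at 5290 and 5586 in Ninj1-/- columns, against 8099 and 7121 in Ninj1+/+ columns (-0.48, adjusted p = 0.00740). Lpl, the lipase that frees fatty acids of the kind Cd36 takes up, stood at 73571 and 61356 in Ninj1-/- columns, against 48267 and 51272 in Ninj1+/+ columns (0.43, adjusted p = 0.0206).

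Among 19 co-receptors, signalling partners and sheddases Cd9, a tetraspanin that associates with Cd36, rose and 18 did not pass, beside 2.91% of all tested genes called in either direction. A raw p below 0.05 was found for 3 of the 19, beside 19.8% of all tested genes. DESeq2 also called Calr, the chaperone calreticulin, named after its values were seen (limma log2 ratio 0.28, adjusted p = 0.104). Cd9 stood at 5460 and 5003 normalized counts in Ninj1-/- columns, against 4005 and 4247 in Ninj1+/+ columns (log2 ratio 0.34, limma adjusted p = 0.0335). None of 12 lysosomal genes, the compartment of Scarb2, was called by limma, nor by edgeR, and 2 had a raw p below 0.05, beside 19.8% of all tested genes. The largest ratio there was that of Ctss, cathepsin S, at 0.25 (limma adjusted p = 0.113), which DESeq2 called (adjusted p = 0.0244). All 6 called genes of these lists lost their calls without Ninj1-/- column 1 (limma adjusted p from 0.111 for Pltp to 0.383 for Cd9) and without Ninj1+/+ column 1 (from 0.0773 for Pltp to 0.182 for Cd9). Without Ninj1-/- column 2, Lrp1 and Cd9 lost theirs (adjusted p = 0.157 and 0.0779). With the composition trend removed Lrp1 and Cd9 were uncalled, at log2 ratios of -0.093 and 0.21, and Cd44, Lpl, Abca1 and Pltp remained called. With the GC trend alone removed, Cd44 and Lpl (limma adjusted p = 0.0529 for each), Cd9 (0.0556) and Lrp1 (0.0921) were uncalled. Abca1 and Pltp remained called in that setting.

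**Figure D5:**
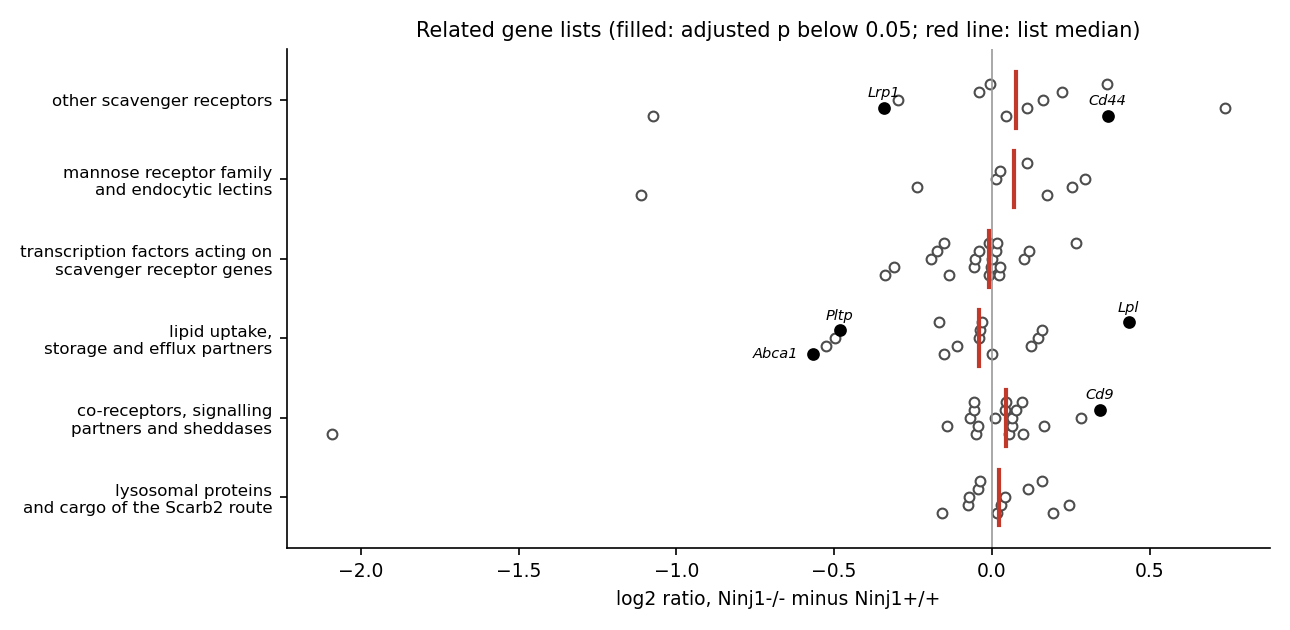
Log2 ratio (Ninj1-/- minus Ninj1+/+) of each tested gene in 6 lists related to the receptors; filled, named points have an adjusted p below 0.05 and the red line is the list median. Medians lie between -0.041 and 0.078, and the called genes fall on both sides of 0.

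Markers of other cells that can carry these receptors moved with genotype in part. The counts called below are to be read beside the 2.91% of all tested genes called in either direction. Stab1, Mrc1 and Cd36 are also made by endothelium. The 6 endothelial markers in the table summed to 14874 and 14469 normalized counts in Ninj1-/- columns, against 17944 and 15279 in Ninj1+/+ columns. Kdr and Pecam1 carried most of that sum. Cdh5 was read 21 to 46 times per column, and Tek and Egfl7 2 to 9 times. None of the 4 tested endothelial markers was called by limma, edgeR or DESeq2, with 2 at an unadjusted p below 0.05, beside 19.8% of all tested genes. All 4 ratios lay below 0, with a median log2 ratio of -0.35. Dendritic cell markers summed to 13493 and 13958 in Ninj1-/- columns, against 9827 and 9022 in Ninj1+/+ columns, with Xcr1 and Ccr7 called higher among 4 tested and Cd209a and Siglech at 0 in every column. Xcr1 and Ccr7 carried most of that sum. Another dendritic marker, Dpp4, lay the other way at 34.0 and 51.4 in Ninj1-/- columns, against 89.2 and 65.1 in Ninj1+/+ columns (log2 ratio -0.85, limma adjusted p = 0.246). Clec9a did not pass (0.18, adjusted p = 0.627). Flt3 and Zbtb46 were below the filter. Flt3 was read 2 and 6 times in Ninj1-/- columns, against 9 and 8 times in Ninj1+/+ columns. Zbtb46 was read 0 and 12 times, against 5 and 4 times. Osteoclast markers summed to 3912 and 3797 in Ninj1-/- columns, against 2603 and 2938 in Ninj1+/+ columns, with Dcstamp called higher among 4 tested. Stromal markers summed to 541 and 453 in Ninj1-/- columns, against 836 and 948 in Ninj1+/+ columns, and Col1a1 and Col1a2 fell among 8 tested. Of the 8 ratios, 7 lay below 0. Among these, Col1a1, Col1a2, Col3a1 and Postn reached the filter of 20 reads in Ninj1+/+ columns only. In Ninj1-/- columns they had 0 to 2 reads, so the sign of their ratios was largely fixed by how they entered the test. Lum lay the other way, at 318 and 260 in Ninj1-/- columns, against 214 and 296 in Ninj1+/+ columns, which overlap (log2 ratio 0.19, limma adjusted p = 0.644). edgeR called 4 of the stromal markers, the same that reached the filter in Ninj1+/+ columns only. DESeq2 called none, giving no adjusted p for Col1a1 or Col1a2. Col1a2 was at 0 in both Ninj1-/- columns, against 97.4 and 145.7 normalized counts in Ninj1+/+ columns. Among 8 macrophage markers Itgam and Mertk fell (log2 ratios -0.37 and -0.48), and 4 of the 8 ratios were above 0, among them those of Lyz2 and Cd14 at 0.22 and 0.20 (limma adjusted p = 0.250 and 0.283). Without Ninj1-/- column 1, the calls of Itgam, Mertk, Xcr1 and Dcstamp were lost (limma adjusted p = 0.467, 0.107, 0.0928 and 0.0692), and without Ninj1-/- column 2 those of Itgam and Mertk (0.0609 and 0.133). Without Ninj1+/+ column 1 all of these and both collagen genes lost theirs except Xcr1 and Ccr7 (adjusted p from 0.0501 for Col1a1 to 0.189 for Itgam). Removal of the composition trend also ended the call of Itgam (adjusted p = 0.0921). The part of these shifts in the values of Mrc1, Stab1 and Cd36 was not tested.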

How the data were processed

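Gene expression was measured by directional mRNA sequencing, per the labels' protocols. The values deposited are a signal, gene counts normalized by the authors with 1 factor per column as the values themselves show: dividing by 1.26 to 1.62 normalized counts gave whole reads, within 0.01, for 100% of them. Per the submitters' processing notes, mm10 and StringTie were used, in roles left unstated; how reads were aligned, counted and normalized is not given in the sources used here. Depth was 46798381 to 62684262 reads. Columns without KO in their name were taken as wild type. Of 17271 rows, 1 named no gene (at most 0.0366% of a column) and was left out.

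Genes with at least 20 recovered reads in a column were tested with limma 3.58.1 and an intensity trend on log2(normalized count + 1), which understates the change of low genes, in R 4.3.3, with calls at Benjamini-Hochberg adjusted p below 0.05. With 2 residual degrees of freedom and 12.2 from the prior, precision rests largely on the spread shared between genes. The alternatives tried were quasi-likelihood tests of edgeR 4.0.16 (204 genes higher, 175 lower) and DESeq2 1.42.0 on recovered reads, TMM scaling, median centring, a pseudocount of 0.1, no filter, at least 100 reads, removal by robust splines of each column's trend with GC content and length, the column number as a block, and omission of each column in turn. Transcript lengths, GC content and positions come from GENCODE M21 on GRCm38, with the longest RefSeq-linked transcript per gene. Reference entries matched 98.1% of genes. Promoter windows are RefSeq's. Named genes were the 10 members, up to 4 called genes per related list by size of ratio (or the largest ratio where none was called), the nearest tested neighbours of called members, and Ninj1. Cell type markers and Nt5dc2 were named with their values seen. Items of the related lists that are withheld are not reported here and do not enter the lists' counts. The members and lists were chosen with earlier results of these data known.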

Additional observations from a re-analysis of the deposited data

How the results depend on the processing

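Across 142 recomputed values of the tested receptors, 117 kept direction and side of the threshold, 12 lost the call, 3 gained it (all Scarf1) and 10 turned sign, all of them uncalled. The called genes kept their calls in 14 of 16 alternatives for Mrc1, 10 of 16 for Stab1 and 12 of 16 for Cd36. Most values belong to uncalled genes, and a changed filter leaves each ratio unaltered by construction, so the pooled count overstates stability. Marco turned to 0.0067 when the joint GC and length trend was removed, and to 0.041 when the GC trend alone was removed, a setting chosen after seeing the data like that for length alone. Leaving out columns, the log2 ratios ran from -0.13 to 0.096 for Marco, -0.10 to 0.045 for Msr1, -0.19 to 0.013 for Scarb1, -0.32 to 0.18 for Olr1, and, among neighbours, from -0.66 to 0.56 for Cacnb2, -0.49 to 0.41 for Smim4 and -0.092 to 0.47 for Sema3c.

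Genes called higher numbered 215, against 341 by DESeq2, 122 without a filter, 108 with the GC and length trend or the GC trend alone removed and 323 with the length trend alone removed. Genes called lower numbered 160, against 100 without a filter, 80 with both trends removed, 76 with the GC trend alone removed and 280 with the column number as a replicate block. Leaving out 1 column gave 14 (without Ninj1-/- column 1) to 355 (without Ninj1+/+ column 2) higher and 3 (without Ninj1+/+ column 1) to 265 (without Ninj1+/+ column 2) lower. Without the column block, receptors called higher went to 0 with both trends or the GC trend alone removed, and receptors called lower to 1. Leaving out columns they were 0 to 1 higher and 0 to 2 lower.

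The labels do not say whether same-numbered columns form pairs. Same-numbered columns deviated from their genotype means with a correlation over genes of -0.034. That value shows no shared shift over genes as a whole, but it cannot exclude pairing. With the column number as a block the log2 ratios are unaltered by construction, 322 genes were called higher, and Scarf1 was called lower (limma adjusted p = 0.00169), as it was with the GC and length trend removed too (0.000415). Olr1, at 24 to 41 reads, and Cd163, at 2 to 9, are limited by depth.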
